A study of Rattus norvegicus with 16 samples.

Results

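The genes described here are 9 targets of p53 and inhibitors of the cell cycle, namely Mdm2, Cdkn1a, Cdkn1b, Cdkn1c, Cdkn2b, Ccng1, Plk2, Gadd45a and Gadd45b. They were found by their symbols among the 32623 genes of the deposited count table, and each of the 9 had a row. RNA was sequenced from 2 lines derived from normal rat kidney, the epithelial NRK-52E, which the submitters describe as derived from the proximal tubule, and the fibroblast line NRK-49F. Epithelial cells grew on a filter insert above the fibroblasts, so that both lines shared 1 medium without touching. After 24 h without serum, they were kept for 48 h at pH 7.4 or at pH 6.0, which the labels shorten to 7 and 6. The 16 libraries, N1 to N16, fall into 4 groups of 4: NRK-52E at pH 7.4 (N1, N2, N5 and N6), NRK-52E at pH 6.0 (N3, N4, N7 and N8), NRK-49F at pH 7.4 (N9, N10, N13 and N14) and NRK-49F at pH 6.0 (N11, N12, N15 and N16). No group grew without the other cell line, so an effect of the pH on 1 line alone cannot be told apart from an effect through its partner. The total count of a library was 16201084 at the lowest and 34784862 at the highest. Levels are given as FPM, counts scaled to a common library total with TMM factors over all 16 libraries, and they compare libraries, not genes, since gene length was not used.

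The transcription factor p53 is kept low by the ubiquitin ligase Mdm2, which is itself a target of p53, and it accumulates when cells are stressed. Its targets include inhibitors that hold cyclin-dependent kinases in check, as well as genes of DNA repair, growth arrest and cell death. In the kidney, the arrest of tubule cells after injury has been linked to p21, the product of Cdkn1a.

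Markers of the cell types were read first. FPM is not scaled by gene length, so the sums over a list and the gene with its highest value are not measures of how many transcripts each gene has. Of 12 epithelial markers, 7 stayed below 1 FPM on average in NRK-52E cells at pH 7.4, among them Epcam, and 9 did so at pH 6.0. Krt8 had the highest FPM of them in every group, with 430.4 FPM and 316 FPM in NRK-52E cells at pH 7.4 and 6.0, and 848 FPM and 206 FPM in NRK-49F cells. The summed level of the list was 513 ± 33.1 FPM and 342 ± 27.6 FPM in NRK-52E cells at pH 7.4 and 6.0 (mean ± SD, n = 4), and 852 ± 69.96 FPM and 209 ± 9.31 FPM in NRK-49F cells. The label epithelial therefore rests on a few markers such as Ocln, which had 41.2 FPM in NRK-52E cells at pH 7.4 and 0 counts in NRK-49F cells at that pH. Cdh1 had 1.62 FPM and 0 counts in these groups. At pH 6.0 Ocln had 9.67 FPM in NRK-52E and 0.099 FPM in NRK-49F cells, while Cdh1 had 0.31 FPM and 0.23 FPM. Of 10 proximal tubule markers, Slc34a1 and Hnf4a were at 0 counts in all NRK-52E libraries, Slc22a6 was at 0 in those at pH 7.4, and the highest FPM was that of Aqp1 with 34.4 FPM at pH 7.4 and 26.4 FPM at pH 6.0. The proximal tubule list summed to 66.7 ± 8.59 FPM and 31.7 ± 4.57 FPM in NRK-52E cells and to 168 ± 23.0 FPM and 468 ± 106 FPM in NRK-49F cells, where Ggt1 had the highest FPM, and Slc22a6 was at 0 at pH 7.4. Fibroblast markers summed to 16948 ± 804 FPM and 12321 ± 759.8 FPM in NRK-49F cells at pH 7.4 and 6.0, with the highest FPM for Vim and for Col1a1, and to 7579 ± 246 FPM and 3348 ± 598 FPM in NRK-52E cells, with the highest for Col3a1, a fibrillar collagen that had 6221 FPM there at pH 7.4. Pdgfra, a receptor that marks fibroblasts, had 392 FPM in NRK-49F and 0.29 FPM in NRK-52E cells at pH 7.4, and Thy1 was at 0 in all libraries, as were the endothelial Kdr and Emcn and the leukocyte gene Ptprc. The 4 endothelial markers summed to 41.2 ± 4.004 FPM and 7.08 ± 0.98 FPM in NRK-52E cells, nearly all of it Tek, and to 0.79 ± 0.33 FPM and 0.51 ± 0.20 FPM in NRK-49F cells. The 5 immune markers summed to 2.22 ± 0.52 FPM and 2.50 ± 0.40 FPM in NRK-52E cells and to 81.2 ± 16.4 FPM and 243 ± 20.1 FPM in NRK-49F cells, nearly all of it Cd68, while Itgam was at 0 in NRK-52E at pH 6.0 and in NRK-49F at pH 7.4. Marker levels thus moved with the pH in both lines, and their part in the results below was not tested.

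The first question was which of these genes differed between the pH values in each line. A gene was taken as changed when its false discovery rate (FDR) was below 0.01 in both edgeR and DESeq2. Of the 9 members, 7 passed the filter on low counts in each comparison, while Cdkn1c and Cdkn2b did not. In NRK-52E cells, 6 members rose at pH 6.0 and 0 fell, with a median log2 fold change of 3.32 over the 7. At an unadjusted p below 0.05, 0 members fell there in edgeR and 0 in DESeq2. Among 13735 genes tested in that line, 56.7% changed, 28.2% upward and 28.5% downward, and the median over all genes was 0.00. In NRK-49F cells, 2 members fell and 0 rose, with a median of -0.04 over the 7, where 37.8% of 13339 genes changed, 18.4% upward and 19.4% downward. Cdkn1a and Mdm2 were higher there at an unadjusted p below 0.05 in both tools and past the threshold in DESeq2 alone. A difference between the pH effects of the lines was called for all 7 members tested, each with the larger value in NRK-52E cells, in a comparison that called 36.9% of 14679 genes, 19.3% in that direction and 17.5% in the other. These are bulk samples, in which a lower level may come from fewer cells with the transcript or from less of it per cell, and these cannot be told apart.

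**Figure D1:**
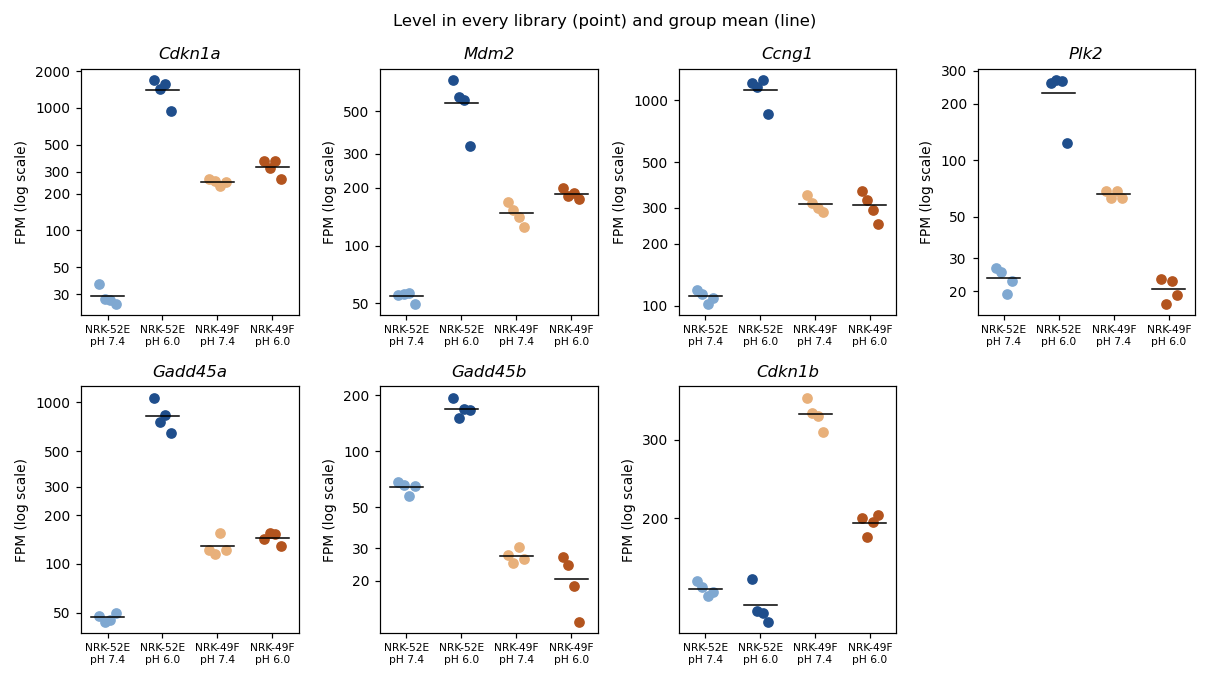
Level of the 7 members that passed the filter in each of the 16 libraries (FPM, log axis with its own range in each panel), by cell line and pH. Points are libraries and lines are group means, and the NRK-52E libraries at pH 6.0 lie above all other groups in each panel but that of Cdkn1b.

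Cdkn1a encodes p21, an inhibitor of cyclin-dependent kinases and the best known target of p53 in growth arrest. It lies on chromosome 20 (rn6). In NRK-52E cells at pH 7.4 its level was 36.5, 27.5, 27.1 and 25.2 FPM in N1, N2, N5 and N6, and at pH 6.0 it was 1699.5, 1431, 1578 and 937 FPM in N3, N4, N7 and N8. All libraries at pH 6.0 were far above all libraries at pH 7.4, although N8 was clearly the lowest of its group. The log2 fold change was 5.58 ± 0.21 (SE; edgeR FDR = 3.23e-08), or 48.5-fold between the group means, and it was the largest among the members in either line. NRK-49F cells had 262, 254, 232 and 251 FPM in N9, N10, N13 and N14 at pH 7.4 and 369.5, 326, 369.6 and 264 FPM in N11, N12, N15 and N16 at pH 6.0. The groups did not overlap, but N16 at pH 6.0 was hardly above N9 at pH 7.4. The log2 fold change of 0.40 ± 0.11 had an FDR of 0.0104 in edgeR and 0.00279 in DESeq2 and so missed the rule in 1 tool, and without N16 it was 0.50 and passed in both. With a number in the column names, described below, as a covariate it was 0.40 and passed as well. The effects of pH in the lines differed by 5.17 ± 0.24 on the log2 scale (edgeR FDR = 6.26e-11).

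Mdm2, on chromosome 7, encodes the ligase that marks p53 for degradation. Its level was 55.6, 55.8, 56.8 and 49.8 FPM in the NRK-52E libraries N1, N2, N5 and N6 and 730.5, 592, 572 and 329 FPM in N3, N4, N7 and N8. The libraries at pH 7.4 lay close together, those at pH 6.0 were spread more widely, and the groups were well apart. Mdm2 rose 10.2-fold, with a log2 fold change of 3.33 ± 0.21 (edgeR FDR = 3.79e-07). In NRK-49F cells it was 168, 154, 141 and 126 FPM in N9, N10, N13 and N14 at pH 7.4, against 200.5, 182, 188 and 175 FPM in N11, N12, N15 and N16 at pH 6.0. Here the groups did not overlap either, yet the log2 fold change of 0.33 ± 0.10 missed the rule (FDR 0.018 in edgeR, 0.00766 in DESeq2). With the number in the column names as a covariate it was 0.33 and passed in both tools. The interaction was 2.99 ± 0.24 (edgeR FDR = 2.46e-08).

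Ccng1 encodes cyclin G1, a p53 target that acts in the feedback on p53 through Mdm2. The gene is on chromosome 10. It had 119, 114, 103 and 109 FPM in N1, N2, N5 and N6 and 1213, 1163, 1258 and 858 FPM in N3, N4, N7 and N8. Again each NRK-52E library at pH 6.0 was above each at pH 7.4, with N8 lowest among the former. The log2 fold change was 3.32 ± 0.13 (edgeR FDR = 3.41e-08), close to that of Mdm2. In NRK-49F cells the level was 347, 318, 299.9 and 286 FPM in N9, N10, N13 and N14 and 361, 326, 293 and 251 FPM in N11, N12, N15 and N16. These groups overlapped, and the log2 fold change was -0.04 ± 0.12 (edgeR FDR = 0.821). The interaction of 3.34 ± 0.18 was past the threshold (edgeR FDR = 4.09e-10).

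Plk2, a polo-like kinase of centriole duplication and the stress response, was the member that changed in opposite directions in the lines. It lies on chromosome 2. Its level was 26.5, 25.4, 19.3 and 22.8 FPM in N1, N2, N5 and N6, while N3, N4 and N7 had 258, 268 and 264 FPM and N8 had 123 FPM. All libraries at pH 6.0 were above those at pH 7.4, and N8 stood apart from the 3 others of its group. Plk2 rose 9.73-fold in NRK-52E cells, with a log2 fold change of 3.26 ± 0.23 (edgeR FDR = 7.39e-07). NRK-49F cells had 68.4, 63.1, 68.3 and 62.9 FPM in N9, N10, N13 and N14 and 23.2, 17.2, 22.8 and 19.0 FPM in N11, N12, N15 and N16. In these cells every library at pH 6.0 was below every library at pH 7.4, and the level was 3.20-fold lower. The log2 fold change was -1.69 ± 0.11 (edgeR FDR = 3.49e-07), and the interaction was 4.94 ± 0.27 (edgeR FDR = 4.09e-10).

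Gadd45a and Gadd45b encode small stress proteins that bind cell cycle regulators and activate a kinase upstream of p38 and JNK, and Gadd45a is a p53 target. Gadd45a, on chromosome 4, had 47.5, 44.1, 45.3 and 49.9 FPM in N1, N2, N5 and N6 and 1069, 757, 835 and 645 FPM in N3, N4, N7 and N8. The groups were far apart, and the log2 fold change of 4.13 ± 0.16 (edgeR FDR = 3.41e-08), 17.7-fold between the means, was second only to that of Cdkn1a among the members. In NRK-49F cells it was 122, 115, 155 and 122 FPM in N9, N10, N13 and N14 and 143, 155, 153 and 128 FPM in N11, N12, N15 and N16. Because N13 was nearly as high as the highest library at pH 6.0, the groups overlapped, and the log2 fold change was 0.16 ± 0.11 (edgeR FDR = 0.262). Its interaction was 3.96 ± 0.19 (edgeR FDR = 1.1e-10).

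Gadd45b, on chromosome 7, moved less. It had 68.4, 65.9, 57.5 and 65.3 FPM in N1, N2, N5 and N6 and 194, 150.2, 168 and 166 FPM in N3, N4, N7 and N8. No NRK-52E library at pH 6.0 reached down to those at pH 7.4, and N4, not N8, was the lowest of its group. The log2 fold change was 1.38 ± 0.10 (edgeR FDR = 1.04e-06), or 2.64-fold. In NRK-49F cells it was 27.5, 25.0, 30.3 and 26.2 FPM in N9, N10, N13 and N14 and 27.0, 24.2, 18.8 and 12.1 FPM in N11, N12, N15 and N16. The first pair at pH 6.0 lay within or just under the range at pH 7.4 and the other pair below it, with a log2 fold change of -0.43 ± 0.21 (edgeR FDR = 0.102) that ran from -0.59 to -0.23 with 1 library left out. The interaction was 1.80 ± 0.24 (edgeR FDR = 9.1e-06).

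Cdkn1b, which encodes the inhibitor p27 of cyclin-dependent kinases and is controlled largely through the stability of its protein, had another pattern. The gene is on chromosome 4. Its level was 145, 139.9, 134 and 136 FPM in N1, N2, N5 and N6 and 146, 124, 123 and 117 FPM in N3, N4, N7 and N8. N3 was above all libraries at pH 7.4 and the 3 others were below them, so the groups overlapped, and the log2 fold change was -0.14 ± 0.09 (edgeR FDR = 0.188). With library totals in place of TMM, which moved the median of all genes in this line to -0.21, it was -0.35 and passed the threshold. In NRK-49F cells it was 373, 344, 339.7 and 313 FPM in N9, N10, N13 and N14 and 200.3, 181, 197 and 203 FPM in N11, N12, N15 and N16. Each library at pH 6.0 was well below each at pH 7.4, and Cdkn1b fell by 0.82 ± 0.09 on the log2 scale (edgeR FDR = 1.25e-05), to a level 1.75-fold lower. The interaction of 0.67 ± 0.12 was the smallest among the members tested (edgeR FDR = 0.000212).

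Cdkn1c and Cdkn2b encode p57 and p15, inhibitors of cyclin-dependent kinases from different families. Cdkn1c was at 0 counts throughout the NRK-52E group at pH 7.4 and had 2, 9, 2 and 1 counts in N3, N4, N7 and N8. In NRK-49F cells it had 5, 6, 5 and 8 counts in N9, N10, N13 and N14 and 7, 9, 7 and 9 counts in N11, N12, N15 and N16. These levels are near the limit of the depth, since 3 counts in a library, which a count of 0 allows for counting error alone, equal 0.0862 to 0.185 CPM of the library total. A fold change is therefore not given. Cdkn2b had 0 counts in all 16 libraries, so that its level was not detectable at this depth in either line.

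**Figure D2:**
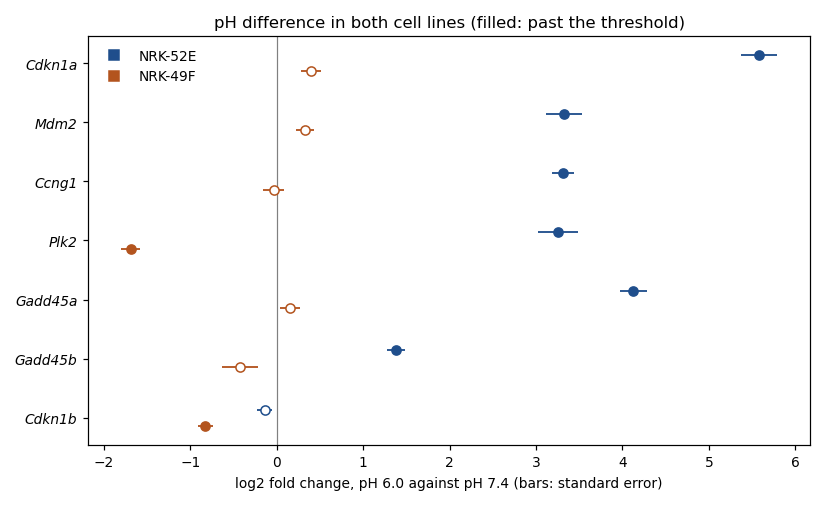
Log2 fold change at pH 6.0 against pH 7.4 (horizontal axis) with its standard error in NRK-52E (blue) and NRK-49F cells (brown), for the 7 members that passed the filter. Filled points had an FDR below 0.01 in both tools, and Plk2 is the only member filled on both sides of 0, with 3.26 and -1.69.

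The next question was how the lines differed at each pH. At pH 7.4 all 7 members tested differed, 6 of them with lower levels in NRK-52E cells and 1, Gadd45b, with a higher level, in a comparison in which 66.6% of 14026 genes differed, 33.3% higher and 33.3% lower in NRK-52E cells. The widest gap was that of Cdkn1a, with a mean of 29.1 ± 5.04 FPM in NRK-52E and 249.5 ± 12.8 FPM in NRK-49F cells (SD, n = 4) and a log2 difference of -3.02 ± 0.11 (edgeR FDR = 4.36e-10). At pH 6.0 the same 7 differed, and 6 were now higher in NRK-52E cells, where 59.8% of 13796 genes differed, 28.6% higher and 31.3% lower. Cdkn1a reached 1411 ± 335 FPM against 332 ± 50.1 FPM, a log2 difference of 2.07 ± 0.19 (edgeR FDR = 9.87e-07). The order of the lines was thus opposite at the 2 pH values for Cdkn1a, Mdm2, Ccng1, Plk2 and Gadd45a. For Mdm2 the log2 difference between the lines went from -1.35 ± 0.09 to 1.56 ± 0.20, for Ccng1 from -1.41 ± 0.08 to 1.85 ± 0.16, for Plk2 from -1.40 ± 0.10 to 3.46 ± 0.24 and for Gadd45a from -1.38 ± 0.10 to 2.50 ± 0.16. Gadd45b was higher in NRK-52E cells at both, by 1.32 ± 0.09 and 3.04 ± 0.22, and Cdkn1b was lower at both, by -1.22 ± 0.07 and -0.63 ± 0.11. Each of these differences had groups without overlap, with an exact two-sided permutation p = 0.0286, the smallest that 4 against 4 libraries can give.

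Ordered by their means, the 4 groups ran alike for Cdkn1a and Mdm2, with NRK-52E at pH 6.0 highest, then NRK-49F at pH 6.0, NRK-49F at pH 7.4 and NRK-52E at pH 7.4, and no neighbours overlapped. Gadd45a and Ccng1 also had NRK-52E at pH 6.0 highest and NRK-52E at pH 7.4 lowest, while the NRK-49F groups between them overlapped. For Plk2 the order was NRK-52E at pH 6.0, NRK-49F at pH 7.4, NRK-52E at pH 7.4 and NRK-49F at pH 6.0, of which the last pair overlapped. Gadd45b was the only member among the 7 with both NRK-52E groups above both NRK-49F groups, and the latter overlapped. Cdkn1b had the reverse order of lines, with NRK-49F at pH 7.4 highest and the overlapping NRK-52E groups lowest.

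Libraries of 1 group were not equally far from the others. N8 was the lowest NRK-52E library at pH 6.0 for Cdkn1a, Mdm2, Ccng1, Plk2, Gadd45a and Cdkn1b. Its distance was not limited to the members, since 8914 of all genes changed in NRK-52E cells without N8, against 7793 with it. Without N8 the log2 fold changes in NRK-52E cells were 5.73 for Cdkn1a, 3.51 for Mdm2, 3.42 for Ccng1, 3.46 for Plk2, 4.22 for Gadd45a and 1.39 for Gadd45b, so all 6 rises were as large or larger. The columns of the table also carry a second number, which is 21 or 22 in the columns of NRK-52E cells and 20 or 21 in those of NRK-49F cells and whose meaning is not given in the sources used here. Each number holds 2 libraries of each pH in a line, so the comparison of the pH values in that line could be repeated within it. Number 22 is found only in NRK-52E and 20 only in NRK-49F columns, so comparisons between the lines were not repeated within a number. With the number as a covariate, 7561 of all genes differed between the lines at pH 7.4, against 9338 without it. At pH 6.0, 6816 differed, against 8251. In NRK-52E cells the rises were called within both numbers, with log2 fold changes of 5.57 and 5.56 for Cdkn1a, 3.53 and 3.05 for Mdm2, 3.31 and 3.30 for Ccng1, 3.30 and 3.17 for Plk2, 4.28 and 3.93 for Gadd45a and 1.32 and 1.43 for Gadd45b. Cdkn1b had -0.12 and -0.19. In NRK-49F cells Plk2 fell within both numbers, with -1.69 and -1.67. Cdkn1b had -0.91 within 20, past the threshold, and -0.73 within 21, with an edgeR FDR of 0.0101 that just missed it. Gadd45a had 0.33 within 20, which was called, and 0.00 within 21, and Gadd45b had -0.03 and -0.89, neither of them called. Cdkn1a, at 0.43 and 0.37, was called within 20 alone, and Mdm2, at 0.25 and 0.42, in neither, as was Ccng1 at 0.05 and -0.13. With the number as a covariate over both values, Cdkn1a, Mdm2, Plk2 and Cdkn1b were called in NRK-49F cells, and Gadd45a, Gadd45b and Ccng1 were not.

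Regulators of p53 were read beside the members. For this list and those that follow, the shares of all genes that rose and fell were 28.2% and 28.5% in NRK-52E cells and 18.4% and 19.4% in NRK-49F cells. Mdm4, the partner of Mdm2 in restraining p53, rose in both lines, by 1.36 ± 0.24 (edgeR FDR = 0.000504) and 1.37 ± 0.15 (edgeR FDR = 1.35e-05), and its interaction of -0.01 ± 0.29 was not called. Within the column numbers, Mdm4 had 1.69 within 21, which was called, and 1.02 within 22, which was not (edgeR FDR = 0.0402), in NRK-52E cells, and 1.39 within 20 and 1.36 within 21, both called, in NRK-49F cells. The transcript counts say nothing of the amount or activity of the p53 protein, which was not analysed here. Of the 16 genes tested on a list of the p53 family and its regulators, 7 rose and 3 fell in NRK-52E cells, with a median of 0.22, and 5 rose and 3 fell in NRK-49F cells, with a median of 0.25. The checkpoint kinase gene Atr rose in both, by 1.40 ± 0.13 and 1.77 ± 0.15, and the acetyltransferase gene Kat5 fell in both, with -0.95 ± 0.12 and -0.67 ± 0.08. The kinase gene Chek2 fell in NRK-52E cells with -0.97 ± 0.14 and had 0.44 ± 0.17 in NRK-49F cells, without a call, and its interaction was called (-1.43 ± 0.22). Of the coactivators of p53, Ep300 rose in NRK-49F cells by 1.24 ± 0.31 and Crebbp fell with -0.54 ± 0.12. Cdkn2a, whose product Arf inhibits Mdm2, had 0 to 1 counts in NRK-52E and 0 to 8 counts in NRK-49F libraries.

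Other transcription targets of p53 were read from a list of 30 genes, of which 28 were in the table, while Bbc3 and Tnfrsf10b were not analysed here. In NRK-52E cells 19 of the 28 tested rose and 0 fell (28.2% and 28.5% of all genes), with a median log2 fold change of 1.15 against 0.00 over all genes, and 3 (Xpc, Ddb2 and Tigar) were lower at an unadjusted p below 0.05 in edgeR and in DESeq2. Beside Gdf15, Phlda3 and Eda2r rose most, by 3.55 ± 0.13 and 3.55 ± 0.53. Phlda3 encodes an inhibitor of Akt signalling and Eda2r a receptor of the tumour necrosis factor family. Of 27 tested in NRK-49F cells, 7 rose, 4 fell and 16 were not called (18.4% and 19.4% of all genes rose and fell), with a median of 0.02. Among them Phlda3 fell by 0.67 ± 0.12 and the death receptor gene Fas by 0.79 ± 0.13, and for Phlda3, which rose in NRK-52E cells, the interaction was 4.21 ± 0.19. The coactivator gene Sertad1 fell by 1.25 ± 0.13, and Rrm2b, a subunit of ribonucleotide reductase, rose by 1.35 ± 0.24 and Eda2r by 1.14 ± 0.28 in NRK-49F cells. The stress cytokine gene Gdf15 rose in both lines, from 0 to 6 counts per library at pH 7.4 to 402 to 634 at pH 6.0 in NRK-52E cells and from 0 to 5 to 231 to 637 in NRK-49F cells. With so few counts at pH 7.4, its fitted log2 fold changes of 8.087 ± 0.54 and 6.517 ± 0.47 depend on the prior count, and the interaction was not called (edgeR FDR = 0.232). Over the list, the interaction was called with a higher value in NRK-52E cells for 16 of 28 genes and with a lower value for 1 (19.3% and 17.5% of all genes), with a median of 1.26.

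**Figure D3:**
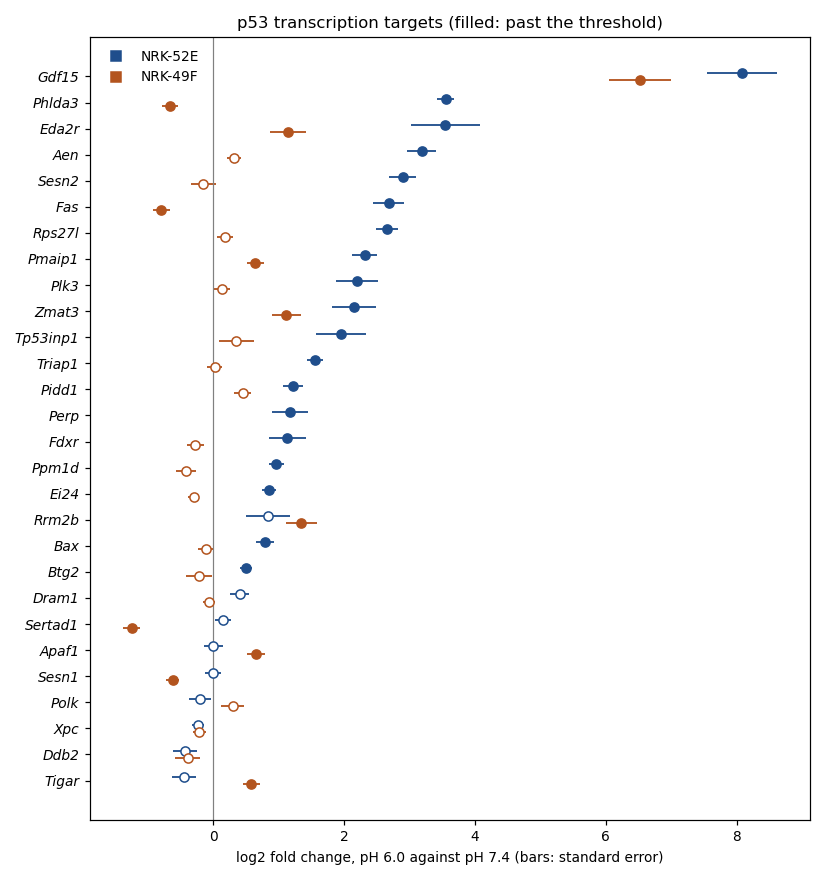
Log2 fold change at pH 6.0 against pH 7.4 (horizontal axis) with its standard error for the 28 p53 target genes of the list that are in the table, in NRK-52E (blue) and NRK-49F cells (brown), ordered by the value in NRK-52E cells. Filled points had an FDR below 0.01 in both tools, as 19 did in NRK-52E and 11 in NRK-49F cells, and Perp was tested in NRK-52E cells alone.

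Further inhibitors of the cell cycle formed another list. Of 14 tested, 8 rose and 3 fell in NRK-52E cells (median 0.55; 28.2% and 28.5% of all genes), and 3 rose and 3 fell in NRK-49F cells (median 0.09; 18.4% and 19.4% of all genes), while Cdkn2d was not analysed here. Cdkn2c, which encodes the inhibitor p18 of the kinases Cdk4 and Cdk6, fell in both lines, with -1.42 ± 0.15 and -1.61 ± 0.29. Pkmyt1, a kinase that inhibits Cdk1, rose in both, by 1.31 ± 0.16 and 1.37 ± 0.20, as did the retinoblastoma gene Rb1, by 0.96 ± 0.19 and 1.17 ± 0.22. Its relative Rbl2 fell in both, with -0.76 ± 0.14 and -0.51 ± 0.12, and Rbl1 rose in NRK-49F cells by 1.27 ± 0.26. The antiproliferative gene Tob1 rose in NRK-52E cells by 1.44 ± 0.13. Ccng2, the relative of Ccng1, fell there with -0.50 ± 0.11, opposite to Ccng1.

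Relatives and partners of the Plk and Gadd45 members formed a further list. Of 12 tested in NRK-52E cells, where 28.2% of all genes rose and 28.5% fell, 3 rose and 3 fell (median -0.14), and of 11 in NRK-49F cells 0 rose and 2 fell (median -0.02), with 2 (Plk4 and Mapk8) higher at an unadjusted p below 0.05 in edgeR and in DESeq2. Plk3 rose by 2.20 ± 0.32 in NRK-52E cells, whereas the mitotic kinase gene Plk1 fell with -0.99 ± 0.14. Gadd45g followed the sign of Plk2 in both lines, with 0.73 ± 0.15 in NRK-52E and -0.87 ± 0.16 in NRK-49F cells. Of the kinases downstream of the Gadd45 proteins, Map2k3 rose in NRK-52E cells by 0.59 ± 0.10 and Mapk14, which encodes p38, fell with -0.41 ± 0.09.

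Genes that the inhibitors act on, or that mark cycling cells, were read next to them. Of 19 cyclins, kinases and their regulators tested in NRK-52E cells, 7 rose and 6 fell (median 0.22), and of 18 in NRK-49F cells 5 rose and 0 fell (median 0.33; 0 lower at an unadjusted p below 0.05 in edgeR or DESeq2), while Ccnb2 was not analysed here. The kinase subunit gene Cks2 rose in both lines, by 2.37 ± 0.11 and 1.89 ± 0.14. Ccnh and Cdk7, parts of the kinase that activates others, rose in NRK-52E cells by 1.33 ± 0.13 and 1.11 ± 0.09, and Ccna2, Ccne2 and Cdk6 fell with -1.60 ± 0.16, -1.05 ± 0.16 and -0.94 ± 0.24. In NRK-49F cells Skp2, whose product directs p27 to degradation, rose by 0.76 ± 0.16, and Cdk2 by 0.67 ± 0.12. Of 22 markers of S phase and mitosis, 17 fell and 2 rose in NRK-52E cells (28.5% and 28.2% of all genes), with a median of -0.96, and 9 rose and 1 fell in NRK-49F cells (18.4% and 19.4% of all genes), with a median of 0.56. Mki67, the proliferation marker, fell with -2.76 ± 0.26, the mitotic transcription factor gene Foxm1 with -2.68 ± 0.20 and Birc5 with -1.87 ± 0.26, while Cdc20 rose by 0.91 ± 0.10 and Tyms by 0.81 ± 0.12. In NRK-49F cells Cdc45, Mcm2 and Mcm3, of the replication helicase, rose by 1.57 ± 0.28, 0.99 ± 0.11 and 0.94 ± 0.17, and Gins2 fell with -0.60 ± 0.10. A difference between the pH effects of the lines was called for 15 of the 22, each with the lower effect in NRK-52E cells, as for 17.5% of all genes. This is not a difference in level, since Mki67 had 87.7 FPM in NRK-52E and 40.3 FPM in NRK-49F cells at pH 7.4. The share of cells in each phase was not measured.

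Lists of stress and of growth factor genes that act on the same members completed the survey. Of 10 genes of the ATF4 and CHOP stress response, 8 rose and 0 fell in NRK-52E cells (median 2.524), and 2 rose and 0 fell in NRK-49F cells (median 0.25). Some genes are on more than 1 list, so the counts of the lists are not separate. Sesn2 is here and among the p53 targets, as Btg2 is among p53 targets and other inhibitors. Plk1, Plk3 and Gadd45g are also on the list of Plk and Gadd45 relatives and on another. None was lower at an unadjusted p below 0.05 in edgeR or DESeq2 in either line. Trib3, Atf3 and Ppp1r15a rose most in NRK-52E cells, by 4.81 ± 0.23, 4.66 ± 0.37 and 2.93 ± 0.28, and Atf3 and Trib3 rose in NRK-49F cells by 2.79 ± 0.27 and 1.75 ± 0.31. TGF-beta, which induces Cdkn2b in many epithelia, was represented by 10 target genes. Of 9 tested in NRK-52E cells 1 rose and 4 fell (median -0.73), and of 10 in NRK-49F cells 2 rose and 7 fell (median -1.18). Ccn2 fell in both, with -1.57 ± 0.08 and -4.21 ± 0.36, Smad7 fell in NRK-52E cells with -1.38 ± 0.12 and Pmepa1 with -0.82 ± 0.17, and Id1 and Id3 fell in NRK-49F cells with -2.46 ± 0.15 and -1.94 ± 0.16. Bhlhe40 rose in both, by 0.37 ± 0.10 and 0.44 ± 0.10.

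Genes whose pattern over the 16 libraries was most like that of a member were sought among 9951 named genes with a mean of at least 5 FPM, by the root mean square difference of log2(FPM + 1) values centred on each gene's mean. For Mdm2 these were Slc19a2 (0.15), a thiamine transporter, then Ccng1 (0.21) and Aen (0.23), a nuclease induced by p53. Ccng1 was in turn closest to Mdm2 (0.21), Slc19a2 (0.26) and Casp4 (0.28). No gene was as near to Cdkn1a, for which the values were 0.38 for Osgin1, 0.72 for Ifi27l2b and 0.75 for Gadd45a. Those nearest to Gadd45a were Isg20 (0.24), the amino acid transporter subunit Slc3a2 (0.30) and Casp4 (0.31). Plk2 was nearest to Fhdc1 (0.36), Stom (0.45) and Sesn2 (0.58), and Gadd45b to Lcat (0.24), Herpud1 (0.24), a gene of protein quality control in the endoplasmic reticulum, and Arid3b (0.28). Cdkn1b was closest to Clta (0.14), Aldh9a1 (0.15) and Anxa11 (0.15).

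Since several members moved together in NRK-52E cells, the promoters in RefSeq (build GRCr8) were searched on both strands for known motifs. The table holds 33469 promoters of 300 bases and 8 of the 9 members, all but Cdkn1c. The p53 half-site, of 10 letters, was found without a mismatch in the promoters of Cdkn1a, Ccng1 and Gadd45a and in 7.98% of all promoters. A pair of adjacent half-sites with at most 1 mismatch in 20 letters was found for Cdkn1a and Ccng1 and in 24 promoters in all, 0.0717%. The cAMP response element TGACGTCA was found for Plk2 and Cdkn2b and in 1.83% of promoters. TGANTCA (7.33% of promoters) and TGATGNAA (3.98%) were in none of the 8, TGACNNNGC was in those of Cdkn1a, Cdkn1b, Cdkn2b and Gadd45a (12.1% of promoters), and CCAAT was in those of Mdm2, Cdkn1b, Ccng1, Plk2, Gadd45a and Gadd45b (37.5%). A match describes the letters and is not evidence that a factor binds there. The stretches around the paired half-sites and around the element of Plk2, the member that fell in NRK-49F cells while it rose in NRK-52E cells, are shown 5′ to 3′ on the strand of the gene, with the match in capitals. They come from chr20:7150711-7150770 on the plus strand for Cdkn1a, from chr10:25685079-25685126 on the minus strand for Ccng1 and from chr2:43702444-43702503 on the plus strand for Plk2, upstream of the annotated start of each gene.
Cdkn1a: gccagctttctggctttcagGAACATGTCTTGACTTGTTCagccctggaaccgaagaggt
Ccng1: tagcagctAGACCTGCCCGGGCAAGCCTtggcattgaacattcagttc
Plk2: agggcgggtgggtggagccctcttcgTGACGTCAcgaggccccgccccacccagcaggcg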

How the data were processed

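RNA from both lines was measured in 16 libraries, grouped by the sample labels, and none was left out. The authors deposited raw counts of read pairs per Ensembl gene, made from poly(A)-enriched RNA mapped to rn6 and counted over exons with featureCounts, multi-mapping pairs included, with no strand option named. Their methods name tophat2 as the aligner, while the submitters' processing notes list HISAT2 2.1.0, and which was used could not be settled. Reads of an antisense or near-identical gene cannot be told apart from those of the named gene. From the counts, edgeR 4.0.16 (TMM, its filter on low counts, quasi-likelihood test) and DESeq2 1.42.0 (Wald test) were run in R 4.3.3 on the libraries of each comparison, and on all 16 for the interaction, with Benjamini-Hochberg adjustment over all genes tested. Log2 fold changes come from edgeR, with an SE equal to their size over the root of F. Exact two-sided permutation tests of log2(FPM + 1) were run in SciPy 1.17.1. The tests were checked on simulated counts with the same spread for all genes, which does not check the scaling or the spread between the real libraries.

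The members and lists were chosen with earlier results of these data known. Named are all members, Mdm4 and Cdkn2a, up to 3 changed genes with the largest rise and 3 with the largest fall per list and line (no overlap of groups, mean of 5 FPM or more in the higher one), the marker of highest FPM in each list and markers at 0 in a line, and the 3 genes most like each member. Ocln, Cdh1, Epcam and Pdgfra, and markers at 0 in 1 group, were named after their values were seen. Nothing in the labels says that the libraries of a group came from separate cultures, so p-values measure the spread between libraries, which may be technical. In the 24 pairs of libraries of 1 group, counts differed beyond sampling noise (chi-square per degree of freedom 6.41 to 97.8). The highest values were those of N8 with N4 (97.8) and with N7 (75.9), while N8 with N3 had 46.4. Alternatives were other scaling (size factors of DESeq2, library totals), no filter or at least 1 CPM in at least 4 libraries, each tool alone, an FDR of 0.05, all 16 libraries in 1 fit, the second column number as a covariate or within its values, and each library left out. Of the listed genes, Pecam1 and Chek1 were not analysed here, and some genes that meet the rule for names are not reported here.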

Additional observations from a re-analysis of the deposited data

Results flagged for a closer look

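The level of Plk2 in library N8 of the NRK-52E group at pH 6.0, 123 FPM, was far from the 3 others of its group. In all, 35 groups of 4 libraries were examined for the members and Mdm4, of which chance alone picks about 1 in 20. This gives 1.75 expected by chance, and 1 was found, so the flag is no more than chance would give.

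The effect of pH differed between the cell lines in the interaction test for each member that passed the filter. The effect in NRK-52E cells minus that in NRK-49F cells, on the log2 scale, was 5.17 for Cdkn1a, 4.94 for Plk2, 3.96 for Gadd45a, 3.34 for Ccng1, 2.99 for Mdm2, 1.80 for Gadd45b and 0.67 for Cdkn1b.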

How the results depend on the processing

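The number of members called in NRK-52E cells stayed at 6, and those for both comparisons between the lines and for the interaction at 7, when each library was left out. Library totals gave 7 in NRK-52E cells, with Cdkn1b added, and DESeq2 alone or no filter gave 8 between the lines at pH 7.4. In NRK-49F cells the number was 2 to 3 with a library left out, and 3 with library totals and with no filter. The filter on 1 CPM in 4 libraries also gave 3. DESeq2 alone, an FDR of 0.05 in both tools and the column number as a covariate each gave 4, with Cdkn1a and Mdm2 added. Within column number 20 the number was also 4, with Cdkn1a and Gadd45a added, and within 21 it was 1. Both column numbers hold 2 libraries of each pH, and the cause of this difference between them was not tested. Rises on the p53 target list numbered 17 to 20 in NRK-52E and 6 to 9 in NRK-49F cells with a library left out, against 19 and 7. In NRK-52E cells they numbered 17 within column number 21 and 9 within 22, and in NRK-49F cells 3 within 21. Among all genes, 7793 changed in NRK-52E cells, with 5244 within column number 21 and 2820 within 22. In NRK-49F cells 5039 changed, with 4680 within 20 and 1980 within 21. Ccng1 in NRK-49F cells, not called in any of these, changed sign to 0.0086 with library totals, 0.052 within column number 20, and 0.012, 0.0004 and 0.057 without N9, N15 or N16, over a range of -0.12 to 0.057 with a library left out. Other values that moved by more than 1.5 times with a library left out, without a change of call, were those of Gadd45b (-0.59 to -0.23) and Gadd45a (0.11 to 0.27) in NRK-49F cells and Cdkn1b (-0.22 to -0.11) in NRK-52E cells. With library totals in place of TMM, the median of all genes moved to -0.21 in NRK-52E cells, 0.34 between the lines at pH 7.4, 0.12 between them at pH 6.0 and -0.25 in the interaction, and the share of higher calls went from 49.7% to 37.6%, from 50% to 65.7% and from 52.4% to 33.8% in NRK-52E cells, between the lines at pH 7.4 and in the interaction. The mean log2 level of Cdkn1b in NRK-52E cells then differed by -0.35, past the threshold, and the cause was not tested. List medians in NRK-52E cells moved from 0.22 to 0.0018 for the p53 regulators and from 0.22 to 0.011 for the cyclins and kinases. They moved from 0.55 to 0.34 for the other inhibitors and from -0.14 to -0.35 for the Plk and Gadd45 relatives. In NRK-49F cells the median moved from 0.02 to 0.07 for the p53 targets and from -0.02 to 0.02 for the Plk and Gadd45 relatives. No called list gene or member changed sign under either scaling in the pH comparisons or the interaction. No paired analysis was possible because the labels give each library a number of its own, and a column number, which holds 2 libraries of each pH in a line and does not say which belong together, could serve only as the covariate and for the values within it given above. Depth limits Cdkn1c and Cdkn2b.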

Other observations

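Cdkn2a and Cdkn2b lie close together on chromosome 5, between Mtap and Dmrta1 in RefSeq's annotation of GRCr8, and these neighbours, chosen after the values of both were seen, were read as well. Mtap, an enzyme gene of methionine salvage, had 817 to 3123 counts in the NRK-52E and 863 to 2110 counts in the NRK-49F libraries. Dmrta1 had 0 counts in all 16 libraries. Mtap fell in NRK-52E cells at pH 6.0, from 129 ± 3.41 FPM to 53.5 ± 10.4 FPM (SD, n = 4), with a log2 fold change of -1.29 ± 0.14 (SE; edgeR FDR = 1.1e-05), and it had 0.12 ± 0.11 in NRK-49F cells (edgeR FDR = 0.355).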
